A study of Homo sapiens with 2 samples.

Results

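The transcripts of potassium, calcium, sodium and TRP channels were compared between parental A2058 cells, an established human melanoma cell line, and A2058 cells selected with carmustine, an alkylating agent that crosslinks DNA. The genes were taken by their names alone, from the symbols that the platform annotation gives to the probes, as potassium channel genes (KCN), voltage-gated calcium channel subunits (CACNA, CACNB, CACNG), sodium channel subunits (SCN), transient receptor potential (TRP) channels, and STIM, ORAI and PIEZO genes. This gave 151 genes with 259 probes, among 20046 genes with 30113 named probes. Total RNA of each population was hybridised to 1 Illumina bead array, so that there was 1 parental and 1 drug-selected sample and no replicate. The labels give 100 uM carmustine for 6 months for the drug-selected cells, and both populations were kept in the same medium, the parental cells alongside the selection per the study's methods. Per the study's methods the selection ran in repeated cycles of drug and recovery with a rising dose, and the survivors were used as a population. No test or p-value between the populations is possible with 1 array each, and higher and lower are used below for a fold above 2 or under 0.5 between these arrays.

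Ion channels are membrane pores that let chosen ions pass. Potassium channels set the resting membrane voltage, and auxiliary subunits alter their gating and traffic. Voltage-gated calcium and sodium channels each consist of a large pore subunit with smaller partners, and they are best known in nerve and muscle. TRP channels sense temperature, ligands or stretch, PIEZO channels open on membrane tension, and STIM proteins of the endoplasmic reticulum open ORAI channels when calcium stores run low. Calcium-activated potassium channels couple calcium entry to membrane voltage, and such channels are found in many tumor cells.

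The values are average bead signals, corrected for background, quantile normalized and log2-transformed, and each detection p-value compares a probe with the negative control beads of its own array. The median signal before normalization was 52.5 for parental cells and 63.1 for drug-selected cells, and 42.5% and 45.6% of all 47323 probes were detected at a p under 0.05. The lowest detected signal was 56.4 for parental cells and 65.9 for drug-selected cells, so the arrays differed in level before normalization. Paired signals below that are not log2 values are averages before normalization, parental first, and are not on a common scale. The summed signals of marker lists are the exception and are normalized. Folds and log2 differences come from background-corrected and normalized values unless stated otherwise, so they can differ from the ratio of the paired signals. Between probes of 1 gene, the log2 difference varied with an SD of 0.31 over 2892 genes for which several probes were detected on each array. This SD measures probes and not cultures. Of 7 melanocyte and melanoma markers, 6 were detected on both arrays, and S100B was not detected. SOX10, the transcription factor of the lineage, had signals of 2356 and 1684, while the summed normalized signal of the list was 43338.5 in parental and 4140.3 in drug-selected cells, with MITF, PMEL, MLANA and TYR lower, and the part of this difference in the channel results was not tested. In bulk RNA, fewer cells of a type and less RNA per cell cannot be told apart. None of 5 muscle markers and 2 of 7 neuron markers were detected, with summed signals of 109.0 and 107.2 for muscle and 497.5 and 348.7 for neuron. Of these neuron markers, GAD1 was detected on both arrays with signals of 344 and 269, and was 1.82-fold lower after normalization. SNAP25 was detected in drug-selected cells only, and RBFOX3, SLC17A7, STMN2, SYP and SYT1 were not detected. The summed signals of other marker lists also differed. The summed signal of 5 leukocyte markers was 1296 and 2779. Of them CD68, the brightest, had log2 signals of 10.19 and 11.08, a 1.85-fold difference. CD14 was 10.4-fold higher, LYZ was detected in drug-selected cells only, and PTPRC and CD3E were not detected. The sum of 5 endothelial markers was 140.0 and 322. TEK was at least 5.74-fold and PECAM1 2.41-fold higher, VWF stayed within 2-fold, and CDH5 and KDR were not detected. The 7 fibroblast markers summed to 3705 and 1766, with PDGFRB, PDGFRA and FAP higher and DCN and LUM lower, and the 4 keratinocyte markers to 1055 and 1582, with KRT10 alone detected. The part of these lists in the channel results was not tested.

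Of the 151 channel genes, 62 were detected on at least 1 array, 36 on both, 19 in drug-selected cells only and 7 in parental cells only, and 89 were not detected on either. Over all genes, 12832 of 20046 were detected, and 10.2% of those were detected in drug-selected cells only, against 30.6% of the detected channel genes. Detection in parental cells only was likewise more frequent among the channel genes, at 11.3% against 4.80% of all detected genes. The detected channel genes were dimmer, with a median of their mean log2 signals of 5.46 against 7.46 over all detected genes. The lowest detected log2 signal was 4.89 for parental and 4.80 for drug-selected cells. The part of this dimness in the shares given here and below was not tested. The threshold itself passes 5% of negative control beads, which for 259 probes is 12.95 on each array, against 50 channel probes detected in parental and 65 in drug-selected cells. At a detection p under 0.01, 53 genes were detected. Of the 62 detected genes, 12 were higher and 4 were lower in drug-selected cells, where over all detected genes 7.12% were higher and 5.84% lower. A gene detected on 1 array has only a bound on the other, since its dim side is then set to the lowest detected signal of that array, or to its own signal where that was higher. Every bound, and every "at least" below, holds for the main processing with a normexp offset of 16 and is no floor over other processing, since a higher offset shrinks the folds of dim genes. With such genes at their bound, 10 channel genes were higher and 3 were lower, against 6.49% and 5.68% of all genes. A gene kept only because it was detected in 1 population had to be bright there, so the counts over detected genes are a description. Among the 36 channel genes detected on both arrays, 4 were higher and 3 lower, against 5.65% and 6.02% of all genes detected on both. With no detection filter, 12 of the 151 were higher and 4 were lower, against 4.56% and 3.74% of all 20046 genes. The median log2 difference of the 62 genes was 0.19, and it was 0.00 with bounds and 0.00 over all detected genes. Before background correction and normalization, each of the 4 lower genes differed by less than 2-fold, as did KCNH3 and ORAI2 among the higher genes. The balance of the calls moved with the scaling between the arrays. It was 15 higher to 2 lower with no normalization between the arrays, where 1817 of all genes were higher and 341 lower. With scaling to the 75th percentile it was 9 to 6, where 838 of all genes were higher and 824 lower.

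**Figure D1:**
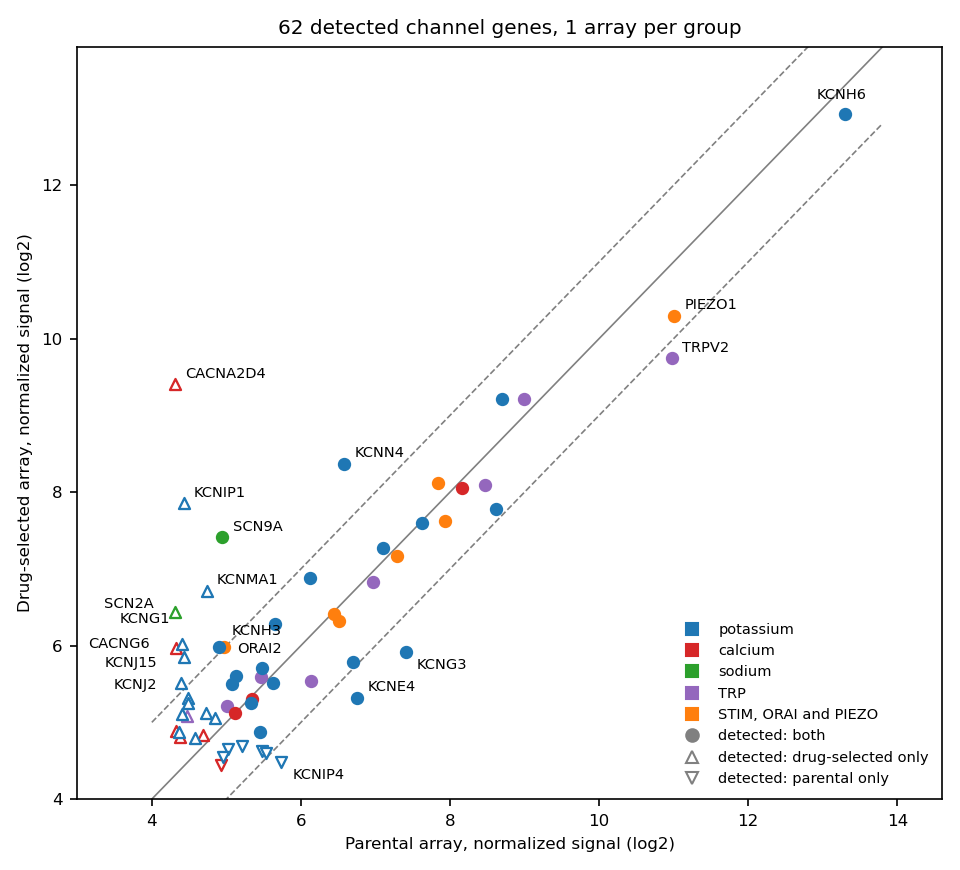
Normalized log2 signal of the 62 detected channel genes on the parental array (x axis) and on the drug-selected array (y axis), coloured by channel class, with filled circles for genes detected on both arrays and open triangles for genes detected on 1, pointing up for drug-selected and down for parental cells. The solid line marks equal signals and the dashed lines mark 2-fold, and the genes furthest above the upper line, CACNA2D4, KCNIP1 and SCN9A, have parental signals between 4.30 and 4.94.

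The bases before the annotated start are shown for the 6 genes, of 7 in all, whose difference passed 2-fold in every alternative setting in which they could be measured and for which RefSeq promoter sequence was at hand, the exception being CACNA2D4. Each run is the 250 bases before the start in GRCh38.p14, 5′ to 3′ on the strand of the gene, and which start these cells use was not measured. Capitals mark matches on either strand to any of 6 short motifs, the GC box GGGCGG that Sp1 factors bind, the AP-1 site TGACTCA, the E-box CACGTG, the TATA box TATAAA, the core TGACG of the CREB site, and CCAAT. GC boxes overlap each other once in KCNMA1.

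KCNIP1, chr5:170353237-170353486, plus strand: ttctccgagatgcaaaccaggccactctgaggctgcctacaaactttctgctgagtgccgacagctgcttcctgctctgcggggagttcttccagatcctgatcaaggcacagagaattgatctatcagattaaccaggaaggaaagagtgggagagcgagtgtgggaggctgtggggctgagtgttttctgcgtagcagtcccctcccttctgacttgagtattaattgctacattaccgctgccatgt
KCNMA1, chr10:77637809-77638058, minus strand: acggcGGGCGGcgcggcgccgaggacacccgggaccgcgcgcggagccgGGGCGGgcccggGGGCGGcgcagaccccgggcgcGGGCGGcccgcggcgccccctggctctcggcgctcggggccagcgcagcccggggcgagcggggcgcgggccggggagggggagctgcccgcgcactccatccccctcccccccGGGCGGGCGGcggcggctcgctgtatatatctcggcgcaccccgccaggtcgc
KCNN4, chr19:43780974-43781223, minus strand: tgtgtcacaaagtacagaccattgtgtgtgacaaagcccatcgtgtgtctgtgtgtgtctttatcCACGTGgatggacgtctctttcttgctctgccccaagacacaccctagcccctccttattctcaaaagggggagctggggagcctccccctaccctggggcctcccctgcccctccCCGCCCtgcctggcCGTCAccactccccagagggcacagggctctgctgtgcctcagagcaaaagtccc
KCNG3, chr2:42493983-42494232, minus strand: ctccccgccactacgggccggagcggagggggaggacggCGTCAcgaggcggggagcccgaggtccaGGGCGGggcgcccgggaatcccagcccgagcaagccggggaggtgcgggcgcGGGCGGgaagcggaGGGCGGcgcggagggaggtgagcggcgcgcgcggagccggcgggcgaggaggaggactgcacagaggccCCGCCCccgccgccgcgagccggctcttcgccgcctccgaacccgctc
SCN9A, chr2:166375945-166376194, minus strand: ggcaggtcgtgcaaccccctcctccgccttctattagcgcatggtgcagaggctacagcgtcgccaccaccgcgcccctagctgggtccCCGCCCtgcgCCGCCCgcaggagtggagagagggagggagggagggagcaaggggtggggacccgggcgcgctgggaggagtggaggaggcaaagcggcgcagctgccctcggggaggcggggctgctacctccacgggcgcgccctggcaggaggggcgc
SCN2A, chr2:165239164-165239413, plus strand: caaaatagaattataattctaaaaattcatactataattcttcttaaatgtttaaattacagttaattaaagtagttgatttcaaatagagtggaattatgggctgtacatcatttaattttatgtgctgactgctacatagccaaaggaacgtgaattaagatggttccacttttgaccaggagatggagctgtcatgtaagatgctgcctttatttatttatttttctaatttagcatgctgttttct

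These stretches differ in composition. The G and C content was 29.2% for SCN2A and 52.0% for KCNIP1, neither of which held any of the 6 motifs, and 60.0% for KCNN4, 74.0% for SCN9A, 80.8% for KCNG3 and 85.6% for KCNMA1, all of which held a GC box. A GC box stood in 42.6% of 35116 promoters of the table and in 59.5% of the 111 channel genes that the table holds. The channel genes were taken with 1 promoter each. The whole table was not limited to 1 promoter per gene or to genes on the array, so these are unlike sets. The E-box, present here in KCNN4 alone, stood in 6.35% of all promoters, and the CREB core, present in KCNN4 and KCNG3, in 21.2%. AP-1 sites stood in 4.20%, TATA boxes in 10.7% and CCAAT boxes in 32.0% of all promoters. The median G and C content was 69.2% for 50 detected and 63.6% for 61 undetected channel genes, and 58.0% over all promoters. A match to such letters describes the sequence and does not show that a factor binds there.

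The potassium channels were the class with the most genes, with 36 of 88 genes detected, of which 7 were higher and 3 lower, or 5 and 2 with bounds, against 7.12% and 5.84% of all detected genes. Both detected calcium-activated pore genes were higher. KCNN4, which encodes the intermediate-conductance channel opened by calcium through calmodulin, had a parental signal of 111 and a drug-selected signal of 416, with a detection p-value of 0 on both arrays. Its normalized log2 signal was 6.58 and 8.37, a 3.45-fold difference. Its log2 difference was between 1.49 and 2.22 over 11 alternative settings, past 2-fold in each. Here and below, the alternative detection filters left the value of each gene as it was, wherever it could be measured. For a gene with 1 detected probe the median over probes did so too. These settings only repeat the main result. KCNMA1, the pore of the large-conductance channel opened by calcium and voltage, had a signal of 53.1 in parental cells, not well above background, and of 158 in drug-selected cells, so that it was at least 3.54-fold higher in the main processing. Over 10 alternative settings its lowest measured difference was 2.29-fold, with a normexp offset of 50. This came from 1 of its 3 probes, and the others were not detected on either array. The other 5 genes of the family, which was grouped here as calcium- or sodium-activated, were KCNN1, KCNN3, KCNT1, KCNT2 and KCNU1. None of them was detected. Of the partners of KCNMA1, KCNMB4 had log2 signals of 7.10 and 7.27 and KCNMB2 of 5.63 and 5.51, while KCNMB3 was 1.88-fold lower and so within the threshold.

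Among the auxiliary subunits, KCNIP1 had the largest difference of the potassium class. It encodes a calcium-binding protein that modulates A-type voltage-gated potassium channels. Its brighter probe had signals of 44.6 (parental) and 304 (drug-selected), and the second had 48.4 and 205. Neither passed the detection threshold in parental cells, and the bounds were 7.79-fold and 4.91-fold in the main processing, while its remaining probe was not detected on either array. The signals of these probes before normalization differed by 6.81-fold and 4.22-fold, and the lowest measured difference of the first over 10 alternative settings was 4.78-fold. KCNMB1, which overlaps KCNIP1 in the annotation, was not detected. The related KCNIP3, also known as a calcium-dependent transcriptional repressor, had log2 signals of 8.70 and 9.21 and stayed within 2-fold. KCNIP4 went the other way. Its brighter detected probe had 75.1 in parental and 55.5 in drug-selected cells, where it was not well above background. After normalization this was a measured difference of 2.38-fold with a bound of 1.91-fold, and its second detected probe was at least 1.29-fold lower. The other 4 probes of KCNIP4 were not detected. KCNE4, an inhibitory partner of voltage-gated potassium channels, had 121 and 82.0 and was 2.69-fold lower after normalization. Before normalization its drug-selected signal was 0.68 of the parental signal. KCNE4 stayed past 2-fold in 8 of 11 alternative settings. It fell within 2-fold when the normexp offset was 50, when normexp was left out and when the authors' own normalization was used. KCNE4 has 1 probe, so the detection filters and the median over probes could not move it and only repeat the main result.

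Voltage-gated pore genes of the KCNA, KCNB, KCNC, KCND, KCNG, KCNH, KCNQ, KCNS and related families were mostly not detected, with 12 of 35 past the detection threshold. No KCNA or KCNQ gene was detected. KCNG3 and KCNS3 encode modifier subunits that form channels only together with other voltage-gated pore subunits. Both probes of KCNG3 were lower. The brighter had 174 in parental and 107 in drug-selected cells, a 2.81-fold difference after normalization. The other had 104 and 66.1, a 3.12-fold difference after normalization, with a detection p-value of 0.0494 in drug-selected cells. KCNG3 was past 2-fold in all 11 alternative settings. KCNS3 had 365 and 290.0 by its brighter probe, 1.79-fold lower after normalization, and 333 and 216 by the other, 2.27-fold lower after normalization. KCNG1, a modifier subunit of the same group as KCNG3, had 43.6 in parental cells, not well above background, and 112 in drug-selected cells, higher by 1 of its 2 probes with a bound of 2.19-fold in the main processing. With a normexp offset of 50 the measured difference of KCNG1 was 1.79-fold, within the threshold. KCNH3 had 56.6 and 109.6, a 2.11-fold difference after normalization, with a parental detection p-value of 0.0481. It was within 2-fold in 4 of 11 alternative settings. All 4 changed the background correction or the normalization, which alone could move it. One KCNH6 probe had 8492 in parental and 8845 in drug-selected cells, with a log2 difference of -0.37. A second KCNH6 probe passed the detection threshold in the drug-selected sample alone, at 80.5, and the last was not detected, so the level of KCNH6 is uncertain. Without KCNH6 the counts over all detected channel genes are unchanged, at 12 higher and 4 lower of 61 genes. Of the other detected genes of this family, KCND1 was detected on both arrays, KCNB2, KCNC4 and KCNH2 in drug-selected cells only, and KCNC2, KCNH1 and KCNH8 in parental cells only, all within 2-fold. KCNH1, an ether-a-go-go channel found in many tumors, had a log2 difference of -0.93 and KCNH8 of -0.85.

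The inward rectifiers and the tandem-pore leak channels help to hold the resting voltage. Of the inward rectifiers 2 were higher by measured signal and none with bounds, and no tandem-pore gene was higher or lower. Over all detected genes 7.12% were higher and 5.84% lower by measured signal. Of 7 detected inward rectifiers of 15, KCNJ15 had 44.8 in parental and 104 in drug-selected cells by its brighter detected probe, and KCNJ2, which carries much of the resting potassium current of heart and skeletal muscle, had 42.9 and 88.7. In parental cells both were under the detection threshold, and the bounds were 1.95-fold and 1.54-fold, under 2-fold, although the normalized signals without a bound differed by 2.67-fold and 2.18-fold. The second detected probe of KCNJ15 had 46.8 and 66.4, a 1.25-fold difference after normalization, with a drug-selected detection p-value of 0.0442. By the median over its probes, KCNJ15 had a log2 difference of 0.87, within 2-fold. KCNJ10, a glial inward rectifier, had log2 signals of 6.13 and 6.88, a 1.69-fold difference, and KCNJ13 had 5.45 and 4.88. Of 7 detected tandem-pore genes of 15, none passed 2-fold. KCNK2, a stretch-sensitive leak channel also known as TREK-1, had log2 signals of 7.63 and 7.60 by its brighter probe and differences of -0.03 and -0.11 by its 2 probes. KCNK4, a related stretch-sensitive channel, had 5.66 and 6.28, and KCNK5 was detected in drug-selected cells only, at least 1.35-fold higher.

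**Figure D2:**
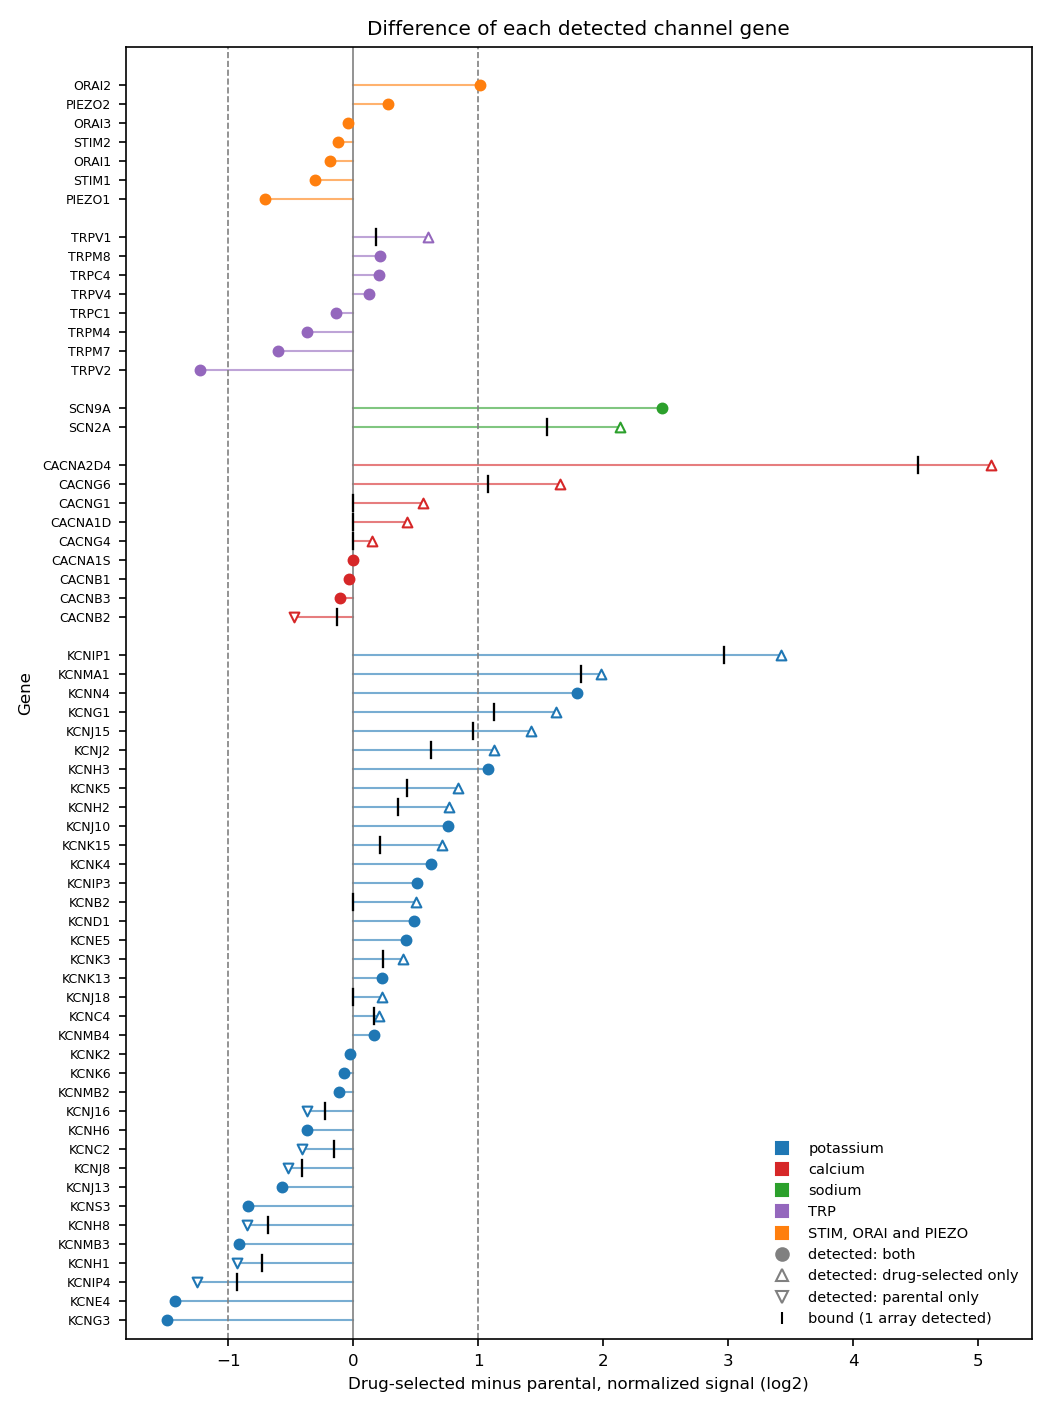
Difference of each of the 62 detected channel genes, drug-selected minus parental, in normalized log2 signal (x axis), ordered within 5 classes, with dashed lines at 2-fold and filled circles or open triangles as detection on both arrays or on 1. Black ticks mark the bound for genes detected on 1 array, and these ticks lie closer to 0 than the measured difference, as for CACNA2D4 at 4.51 against 5.10.

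In the calcium channel class, 9 of 25 genes were detected, of which 2 were higher and 0 lower, against 7.12% and 5.84% of all detected genes. The largest difference of all channel genes was in an accessory subunit. CACNA2D4 encodes an alpha-2-delta protein, a mainly extracellular subunit that raises the surface level of voltage-gated calcium channels and is known for its role in the retina. Its single probe had a signal of 38.8 in parental cells, with a detection p-value of 0.829, and of 812 in drug-selected cells, so that it was at least 22.8-fold higher in the main processing. Its signals before normalization differed by 20.9-fold. The measured log2 difference was 5.10, and over 10 alternative settings it was between 3.73, or 13.2-fold, and 7.46. LRTM2, which overlaps CACNA2D4 in the annotation, was not detected, and the other 3 alpha-2-delta genes, CACNA2D1, CACNA2D2 and CACNA2D3, were not detected either. The pore subunits that CACNA2D4 would accompany were near or under background. Of 10 pore genes, CACNA1S had signals of 60.7 and 75.5, with log2 signals of 5.12 on both arrays, and CACNA1D was detected in drug-selected cells only, with a detection p-value of 0.0494. CACNA1A, CACNA1B, CACNA1C, CACNA1E, CACNA1F, CACNA1G, CACNA1H and CACNA1I were not detected. Among the cytoplasmic beta subunits, CACNB3 was well detected, with log2 signals of 8.16 and 8.05, and CACNB1 had 5.34 and 5.31. CACNG6, a gamma subunit of voltage-gated calcium channels, had 39.5 and 109.3 and was higher by 1 of its 3 probes, with a bound of 2.11-fold in the main processing. With a normexp offset of 50 its measured difference was 1.79-fold, within the threshold. CACNG4, a gamma subunit that also regulates AMPA receptors, and CACNG1 passed the detection threshold in drug-selected cells alone, narrowly, at 0.0364 and 0.0260.

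Both detected sodium channel genes were higher in drug-selected cells, and the other 10 of 12 were not detected, where 7.12% of all detected genes were higher. SCN2A was kept through the drug-selected array alone and so had to be bright there. SCN9A encodes the peripheral sodium channel of pain-sensing neurons. Its brighter probe had 57.4 in parental cells, with a detection p-value of 0.0377, and 233 in drug-selected cells, a 5.54-fold difference, and its other probe had 44.3 and 139 and was at least 2.98-fold higher. SCN9A was past 2-fold in all 11 alternative settings, with log2 differences from 1.66 to 3.39. SCN2A, the channel of central neurons, had 38.8 and 137 by 1 of its 3 probes and was at least 2.93-fold higher in the main processing, with a lowest measured difference of 2.25-fold over 10 alternative settings. The other probes had 51.0 and 56.7, and 39.6 and 57.7, and were not detected. SCN2A and SCN9A lie in a group of 5 sodium channel pore genes on chromosome 2, in the order SCN3A, SCN2A, SCN1A, SCN9A and SCN7A. Other genes lie among them. Of these, GALNT3 was detected on both arrays with a log2 difference of -0.77, and CSRNP3 and TTC21B were not detected. SCN1A, which lies between SCN2A and SCN9A, had 44.0 and 56.1, SCN7A had 43.8 and 50.6, and none of the 3 probes of SCN3A was detected. Higher signals were thus detected at SCN2A and SCN9A only. Undetected probes do not show that the other genes of the group were unchanged, since other probes of SCN2A were undetected too. The beta subunits SCN2B, SCN3B and SCN4B were not detected. Beside these genes, the 7 neuron markers summed to 497.5 (parental) and 348.7 (drug-selected), with 5 of them not detected. The 2 detected markers differed in direction. GAD1 had log2 signals of 8.52 (parental) and 7.65 (drug-selected). SNAP25, under the detection threshold in the parental sample, had 4.33 and 5.48, with a bound of 1.51-fold.

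**Figure D3:**
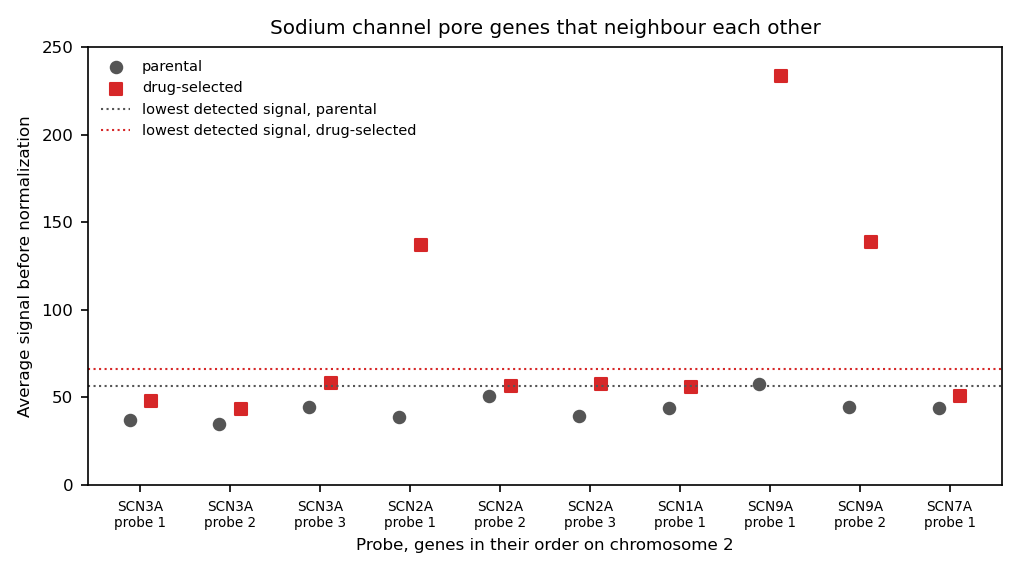
Average signal before normalization (y axis, linear from 0) of the 10 probes of 5 sodium channel pore genes, in their order on chromosome 2, in parental cells (grey circles) and drug-selected cells (red squares), with dotted lines at the lowest detected signal of each array. Of these probes, 1 of SCN2A and both of SCN9A stand above the drug-selected line, at 137, 233 and 139, and the other 7 lie under it.

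Of the 19 TRP genes, 8 were detected, and TRPV2 was lower while the others stayed within 2-fold. Over all detected genes 7.12% were higher and 5.84% lower. TRPV2, a calcium-permeable channel of the vanilloid group that responds to heat in rodents and to chemical ligands, had 1751 in parental and 1020.5 in drug-selected cells, and its log2 signal was 10.97 and 9.75, a 2.34-fold difference. Its log2 difference ranged from -1.24 to -0.81 over 11 alternative settings and was within 2-fold in the 2 that left the drug-selected array brighter, which were no normalization between the arrays and scaling to the median. TRPV2 has 1 probe, so the detection filters and the median over probes could not move it. TRPM8, the receptor for cold and menthol, had log2 signals of 8.99 and 9.21 by its brighter probe, and differences of 0.22 and -0.05 by its 2 probes. TRPM4, a calcium-activated cation channel that is itself impermeable to calcium, had 8.47 and 8.10, and TRPM7, a magnesium-permeable channel fused to a kinase, had 6.13 and 5.54. TRPC1 had 6.96 and 6.83 and TRPC4 5.01 and 5.22, and TRPV4, an osmotically sensitive channel, had 5.46 and 5.59. TRPV1, the capsaicin receptor, was detected in drug-selected cells only, and its bound was 1.14-fold. TRPA1 was not detected.

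All 7 store-operated and mechanosensitive genes were detected on both arrays. ORAI2 alone was higher and none was lower, against 5.65% and 6.02% of all genes detected on both arrays. PIEZO1, which opens on membrane stretch, had 1791 and 1469, with log2 signals of 11.01 and 10.30, a 1.63-fold lower level that did not pass 2-fold. PIEZO2, the touch channel of sensory neurons, had 7.84 and 8.11. The store sensors STIM1 and STIM2 had 7.94 and 7.63, and 7.29 and 7.17. Of the pores they open, ORAI1 had 6.51 and 6.32, ORAI3 6.45 and 6.41, and ORAI2 was 2.02-fold higher, from 57.9 with a parental detection p-value of 0.0312 to 110.2. ORAI2 lay just past the threshold and was within 2-fold in 4 of 11 alternative settings. All 4 changed the background correction or the normalization, which alone could move it. ALKBH4, which overlaps ORAI2 in the annotation, had a log2 difference of 0.67, and its part in the ORAI2 signal was not tested.

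**Figure D4:**
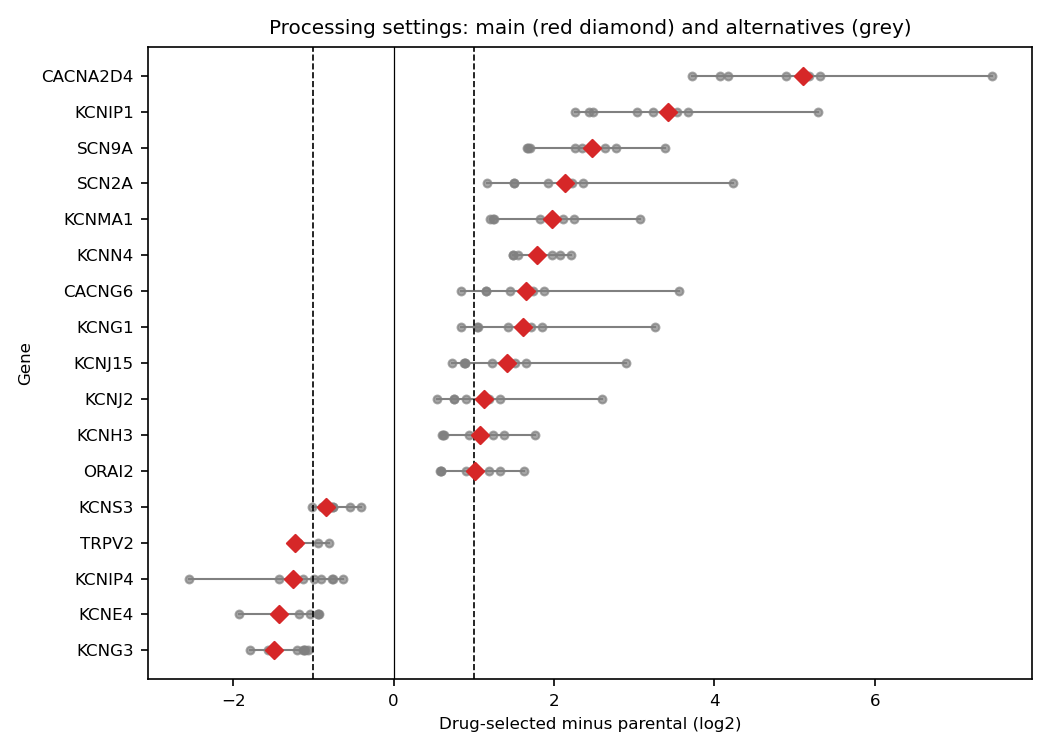
Log2 difference, drug-selected minus parental (x axis), of the 16 channel genes past 2-fold and of KCNS3, in the main processing (red diamonds) and in each alternative setting (grey points, joined by a line over their range). Dashed lines mark 2-fold, and CACNA2D4, KCNIP1, SCN9A, SCN2A, KCNMA1, KCNN4 and KCNG3 lie beyond them in every setting in which they could be measured.

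Of 12 channel genes with at least 2 detected probes, the probes differed in the same direction in 10, and KCNH6 and TRPM8 were the exceptions. This count is a description. Probes kept through 1 array alone, as those of KCNIP1 and KCNJ15, had to be bright there, which largely sets their direction. It also includes differences as small as those of KCNK2, at -0.03 and -0.11. Several of the higher genes, among them KCNMA1, SCN2A, CACNG6 and KCNG1, were detected by 1 probe of several, and why their other probes gave no signal was not tested.

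Other genes of ion transport were described from 4 lists. Of 101 genes with a probe, 71 were detected, 6 higher and 10 lower, again against 7.12% and 5.84% of all genes. Of 19 detected genes of calcium stores, pumps and exchangers, none was higher and 3 were lower. These were ATP2B4, a plasma membrane calcium pump, 3.33-fold lower, and the endolysosomal channels MCOLN3, 2.51-fold, and MCOLN2, 2.08-fold lower. The store release channel ITPR3 was 1.99-fold lower and so within the threshold. Of 15 detected calcium effectors, PRKCA, a calcium-dependent protein kinase, was 5.31-fold higher and CAMK1 2.15-fold higher. Of 10 detected sodium and potassium transport genes, the sodium pump subunit ATP1B1 was 2.63-fold higher, while its relative ATP1B3 was 2.90-fold lower, FXYD3, a pump regulator, 5.96-fold lower and the cotransporter SLC12A2 2.08-fold lower. SCNN1A, a subunit of the epithelial sodium channel, was under the detection threshold in the parental sample, with a bound of 2.99-fold, and ATP1B2 had a measured difference of 2.14-fold with a bound of 1.86-fold. Of 27 detected chloride and other channels, P2RX6 was 2.68-fold higher, and the gap junction gene GJB2 was 3.91-fold, the lysosomal chloride transporter CLCN7 2.93-fold, CLCN5 2.58-fold and the ATP-gated channel P2RX4 2.34-fold lower. TRPM1, the melanocyte channel that the selection of symbols left out, was not detected on either array.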

How the data were processed

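Total RNA of parental and drug-selected A2058 cells was hybridised to Illumina HumanHT-12 v4 arrays, 1 per population. The authors deposited, for every probe, an average bead intensity that was not normalized, together with its detection p-value. The authors also deposited a table of normalized intensity, for which the study's methods state a background subtraction per bead but no normalization algorithm. The first table was background-corrected by normexp (limma 3.58.1 in R 4.3.3), using the detection p-values to infer the background and adding 16, and then quantile normalized and log2-transformed. A probe was kept if its detection p fell under 0.05 on either array, and the kept probe of a gene with the highest mean signal stood for it. All differences are drug-selected over parental, as the samples are labelled. In the paper's array methods the fold is instead that of suspended against adherent melanoma cells, terms that neither sample's labels use, so the identity of the 2 samples rests on the labels alone. With 1 array per group, the number of arrays limits the precision.

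The platform annotation gave 1 symbol to 30113 probes and more than 1 to 8, and all 151 channel symbols were current in GRCh38.p14 by gene identifier. Promoters were RefSeq sequences of that build. Text names were given to channel and transport genes past 2-fold, to channel genes whose kept probes disagreed about 2-fold and to the 2 brightest channel genes of each family. A few others named for completeness, such as KCNK5, KCNH1, KCNH8 and ITPR3, were chosen after their values were seen. The members and lists were chosen with earlier results of these data known. Other processing tried comprised normexp offsets of 50 and 0, omission of normexp, other or no scaling between arrays, the authors' normalized table, other detection filters, the median over probes, and thresholds of 1.5-fold and 3-fold. The scripts were tested on simulated data. Python 3.11.15, numpy 2.4.6, pandas 2.3.3 and matplotlib 3.10.9 were used for the counts and figures.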

Additional observations from a re-analysis of the deposited data

How the results depend on the processing

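No named channel gene past 2-fold changed direction under any alternative run, but counts moved with the background offset, the scaling and the threshold, and the cause was not tested. Genes detected on 1 array give no value among genes detected on both. By measured difference, the share of all genes higher was 4.82% with an offset of 50, 5.09% without normexp and 5.35% with the authors' normalization. It was 6.53% with scaling to the 75th percentile and 7.89% at a detection p under 0.01. Leaving out a replicate was not run, because each group has 1 array, and no paired analysis was possible because each group has 1 sample. With a normexp offset of 50, 6 channel genes were higher and 2 lower, 5 higher with bounds, 3 potassium genes higher and 1 lower, 1 calcium gene higher, 0 of the STIM, ORAI and PIEZO genes higher, and 472 of all genes lower. With an offset of 0, 19 channel genes were higher and 11 lower (8 lower with bounds), 11 potassium genes higher and 9 lower, 4 calcium genes higher and 1 lower, 1 TRP gene higher, 10 other transport genes higher, and 1501 of all genes higher and 1337 lower. Without normexp, and likewise with the authors' normalization, 8 channel genes were higher, or 5 with bounds, and 2 were lower, against 12 and 4 in the main processing. Each of these settings gave 4 potassium genes higher and 1 lower, and 0 STIM, ORAI and PIEZO genes higher. Without normexp 480 of all genes were lower. With no normalization between the arrays, which raised the median log2 difference of all genes to 0.37, 2 channel genes were lower, 0 TRP genes lower and 5 other transport genes lower, with 1817 of all genes higher and 341 lower. Scaling to the median raised that median to 0.23 and gave 0 TRP genes lower, with 1402 of all genes higher and 434 lower. Scaling to the 75th percentile gave 6 channel genes higher with bounds, 5 potassium genes lower and 0 STIM, ORAI and PIEZO genes higher. At a detection p under 0.01, 6 channel genes were higher with bounds. Among genes detected on both arrays, 4 channel genes were higher, also with bounds, with 2 potassium genes, 0 calcium genes and 1 sodium gene higher. At 1.5-fold, 10 channel genes were lower, also with bounds, with 12 potassium genes higher and 7 lower, 1 TRP gene higher and 2 lower, 1 STIM, ORAI and PIEZO gene lower, 22 other transport genes lower, and 1970 of all genes higher and 2037 lower. At 3-fold, 0 channel genes were lower, also with bounds, 5 were higher with bounds, 4 potassium genes higher and 0 lower, 0 TRP genes lower, 0 STIM, ORAI and PIEZO genes higher, 2 other transport genes higher and 3 lower, and 454 of all genes higher and 226 lower.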

Other observations

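Genes that lie next to the channel genes in the GRCh38.p14 annotation are given as values with no explanation, and those named were chosen after their values were seen. SOX9, a transcription factor of neural crest and cartilage and the next listed protein-coding gene on one side of KCNJ2, was detected in drug-selected cells only, with a log2 difference of 4.54, while KCNJ16, on the other side of KCNJ2, was detected in parental cells only. SLIT2, an axon guidance ligand that lies near KCNIP4, was detected in drug-selected cells only, with a log2 difference of 3.01 where KCNIP4 had -1.25. ETS2, near KCNJ15, was lower at -1.61 where KCNJ15 was at 1.42. CENPV, near TRPV2, was higher at 1.29 where TRPV2 was at -1.23. The neighbours of KCNG3, COX7A2L and MTA3, were at -0.30 and -0.13, and those of KCNMA1, LRMDA and DLG5, were at -0.19 and -0.30.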
